A study of Mus musculus with 2 samples.

Results

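The common gamma chain cytokine receptors were taken as 8 genes by symbol, *Il2ra*, *Il2rb*, *Il2rg*, *Il7r*, *Il4ra*, *Il9r*, *Il15ra* and *Il21r*, of 14732 gene symbols listed in at least 1 of 2 RNA sequencing libraries. All 8 were listed in both libraries. CD8+ T cells came from OT-I transgenic C57BL/6 mice aged 6 to 8 weeks (spleen and lymph nodes), which carry a T cell receptor for SIINFEKL, a peptide of OVA. The cells received the peptide at 2.5 ng/mL with IL-2 at 10 U/mL for 24 h, and were then transduced with the retroviral vector RVKM carrying Eomes and an IRES-hCD2 cassette, or with the empty vector as control (Ctrl). Values of these groups are given as with Eomes and with the empty vector. Human CD2+ cells were sorted 48 h later, plated at 40000 cells per well, and given peptide and IL-2 again at those doses for 3 days. Both groups thus carried the OT-I receptor and a vector, were sorted by the vector's own marker, and grew in IL-2. The number of mice behind each culture is not given in the sources used here. Eomes is a T-box transcription factor of effector and memory CD8+ T cells, and the comparison asks which transcripts differ when it is present in high amounts.

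Receptors for IL-2, IL-4, IL-7, IL-9, IL-15 and IL-21 share the common gamma chain, which is encoded by *Il2rg*. Each pairs it with a private chain, and the receptors for IL-2 and IL-15 also share the beta chain encoded by *Il2rb*. The kinase JAK1 sits on the private or beta chains and JAK3 on the gamma chain, and ligand binding lets them phosphorylate STAT factors, mainly STAT5 for IL-2, IL-7, IL-9 and IL-15, STAT6 for IL-4 and STAT3 for IL-21. In CD8+ T cells IL-7 and IL-15 are known for the survival of naïve and memory cells, and IL-2 for the growth of activated ones. Activation is known to raise the alpha chain of the IL-2 receptor and to lower that of the IL-7 receptor.

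A single library was sequenced per condition, so there is no test between the conditions, no error can be given for a value, and each difference compares 2 libraries. In bulk RNA, fewer cells of a type and less RNA per cell cannot be told apart. The authors deposited FPKM, which scales fragments to transcript length and to library size. The number of reads behind each value is unknown here, so counting intervals are not given. Log2 ratios are Eomes-overexpressing over control. A gene was called expressed at an FPKM of at least 1 in at least 1 library, which 9925 genes met, and a ratio beyond 1.5-fold was used as the threshold, the fold of the study's own definition. *Eomes* had an FPKM of 2.47 with the empty vector and 129.6 with Eomes. Of 6 CD8+ T cell markers, 5 were listed and *Trac* was not, and their summed FPKM was 978.1 with the empty vector and 720.0 with Eomes. These 5 had log2 ratios from -0.88 to -0.24. Of 3 markers of CD4+ or regulatory T cells, *Cd4* and *Foxp3* were under an FPKM of 0.1 in both libraries. The other, *Zbtb7b*, was at 13.8 with the empty vector and 11.6 with Eomes.

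Of the 8 receptor genes, 7 were expressed and *Il9r* was not. The same order of levels was found in both libraries. *Il2rb* was highest, followed by *Il2ra*, *Il2rg*, *Il21r*, *Il4ra*, *Il7r*, *Il15ra* and *Il9r*. With 1 library per condition there is no spread by which neighbours in this order could be called different. The 3 chains of the high-affinity IL-2 receptor held 89.5% of the FPKM summed over the 8 genes in control and 91.6% in Eomes-overexpressing cells.

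**Figure D1:**
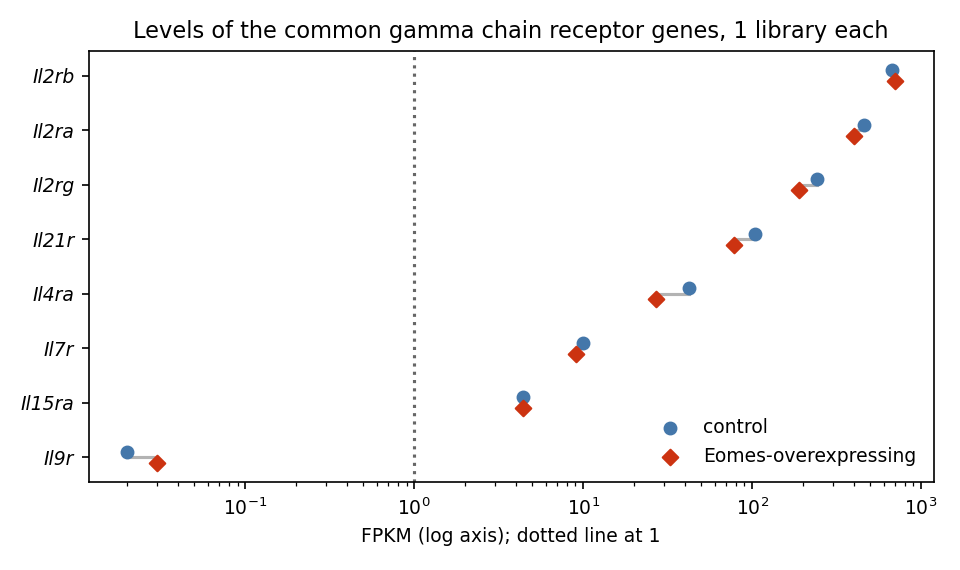
FPKM (log axis) of the 8 receptor genes in the control library (blue circles) and the Eomes-overexpressing library (red diamonds), 1 library each. The order from *Il2rb* to *Il9r* is the same in both, the widest gap among genes over an FPKM of 1 is that of *Il4ra*, and *Il9r* lies far below the dotted line at 1.

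Only *Il4ra* passed 1.5-fold, and it was lower in Eomes-overexpressing cells. Among all 9925 expressed genes 5.16% were lower by more than 1.5-fold, against 1 of 7 receptor genes. No receptor gene was higher by more than 1.5-fold, against 2.44% of expressed genes. A log2 ratio under 0 was found for 6 of the 7, with *Il2rb* the exception, against 50.5% of expressed genes. The number was 5 of 7 when the libraries were scaled to the same summed FPKM or to the median log2 ratio, since *Il15ra* then lay just above 0. The median log2 ratio over the 7 was -0.18, and over all expressed genes -0.0037. Summed over the 8 genes, FPKM was 1535 with the empty vector and 1414 with Eomes.

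*Il4ra* encodes the chain that binds IL-4 with the common gamma chain, and also forms a receptor for IL-4 and IL-13 without it. It lies on the plus strand of mm10 at chr7:125552120-125579474. Its FPKM was 42.5 with the empty vector and 27.1 with Eomes, a log2 ratio of -0.65, so the level was 63.6% of control. Among 2889 genes with a mean FPKM of 20 to 100, the middle 95% of log2 ratios lay between -0.46 and 0.40, and 1.25% of these genes had a lower ratio than *Il4ra*. In that class of level 1.45% of genes were lower by more than 1.5-fold. *Il4ra* was the only expressed receptor gene outside such a range of its class of level.

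The next protein-coding gene on the high side of *Il4ra* is another of the 8, *Il21r*, which begins 23955 bases away on the same strand at chr7:125603429-125633570. *Il21r* encodes the private chain for IL-21, a cytokine of helper T cells. Its FPKM was 103.8 with the empty vector and 78.1 with Eomes, a log2 ratio of -0.41. This is within 1.5-fold, and 3.46% of the 2889 genes of similar level had a lower ratio. On the other side of *Il4ra*, 60.5 kb away, *Nsmce1*, which encodes a subunit of the SMC5/6 complex, had an FPKM of 44.3 with the empty vector and 24.9 with Eomes. Its log2 ratio was -0.83. Beyond *Il21r*, *Gtf3c1*, a gene named after its values were seen, had a log2 ratio of -0.08. Of these neighbours on chromosome 7, *Nsmce1* and *Il4ra* passed 1.5-fold, and *Il21r* and *Gtf3c1* did not.

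The stretch of sequence before the start of *Il4ra* and *Il21r* is shown. This pair lies side by side and had the lowest ratios of the expressed receptor genes. The stretch of *Il7r* is shown because, of the 7 receptor genes searched, only it had a match to a STAT motif. Sequences are from RefSeq, build GRCm38.p6 (mm10), where an entry was found for 7 of the 8 genes, with 2 windows for *Il15ra* and none for *Il2rb*. Windows of 250 bases before to 50 after the start were searched on both strands for AGGTGTGA, a motif of T-box factors, and for TTCNNNGAA, the motif of STAT factors. Only bases before the RefSeq start and outside exons of the gene annotated in GENCODE vM21 are printed, 5′ to 3′ on the strand of the gene, and capitals mark the STAT motif. The RefSeq start of *Il7r* lies inside the gene as annotated in GENCODE, past the first exon of its outermost transcript, so the stretch printed for it is intronic in that transcript.
Il4ra, plus strand, chr7:125552021-125552119: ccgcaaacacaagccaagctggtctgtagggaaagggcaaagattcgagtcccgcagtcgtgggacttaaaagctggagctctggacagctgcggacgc
Il21r, plus strand, chr7:125603179-125603428: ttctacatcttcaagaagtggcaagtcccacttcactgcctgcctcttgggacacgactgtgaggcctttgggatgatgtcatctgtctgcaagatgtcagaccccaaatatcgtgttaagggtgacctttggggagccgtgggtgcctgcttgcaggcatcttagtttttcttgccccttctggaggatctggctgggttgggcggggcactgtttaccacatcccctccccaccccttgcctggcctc
Il7r, minus strand, chr15:9529877-9530040: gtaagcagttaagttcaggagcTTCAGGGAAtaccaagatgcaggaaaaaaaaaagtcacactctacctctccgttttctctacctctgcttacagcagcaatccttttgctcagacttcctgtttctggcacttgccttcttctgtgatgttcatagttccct

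The T-box motif was found in 0 of the 8 windows of the receptor genes and in 1.28% of all 32851 windows. The STAT motif was found in 1 of the 8, that of *Il7r*, and in 8.30% of all windows. A match is a description of the letters, and no match says only that these letters are not in the window.

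*Il2rg*, the common gamma chain itself, lies on the minus strand at chrX:101264378-101268255. Its FPKM was 242.9 with the empty vector and 189.7 with Eomes, a log2 ratio of -0.36, or 78.1% of control. Among 910 genes with a mean FPKM of at least 100, the middle 95% of log2 ratios lay between -0.45 and 0.31, and 4.07% had a lower ratio than *Il2rg*. The annotation also holds *Gm20489*, a protein-coding gene model that overlaps *Il2rg* on the same strand. Of the 50-base stretches of the longest *Il2rg* transcript, 42.0% also occur in transcripts of *Gm20489*. No value was listed under that symbol in the files used here, and the annotation the authors counted with is not given in the sources used here.

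*Il2rb* encodes the beta chain that signals for IL-2 and IL-15, and lies on the minus strand at chr15:78479256-78495271. Its FPKM was 674.2 with the empty vector and 702.2 with Eomes, a log2 ratio of 0.06. It was the gene with the highest level among the 8 and was at position 120 with the empty vector and 118 with Eomes when all listed genes were ordered by FPKM. Markers of NK cells, which are also known to carry the beta chain, were low but higher in the same library. Their summed FPKM, over 2 of 3 markers listed, was 0.40 with the empty vector and 6.10 with Eomes. *Klrb1c* made up 5.74 of the latter, and the defining marker *Ncr1* was not listed. Their part in the level of *Il2rb* was not tested.

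*Il2ra* encodes CD25, which raises the affinity for IL-2, and lies on the plus strand at chr2:11642807-11693193. Its FPKM was 457.4 with the empty vector and 403.1 with Eomes, a log2 ratio of -0.18. Of the 910 genes of similar level, 13.4% had a lower ratio. *Il15ra* follows on the same strand at chr2:11705290-11734317, with a gap of 12097 bases. It encodes the chain that presents IL-15, and its FPKM was 4.39 with the empty vector and 4.38 with Eomes. Its log2 ratio was -0.0033, which turned to 0.03 when both libraries were scaled to the same summed FPKM. The FPKM of *Il2ra* was 104.2 times that of *Il15ra* in control and 92.0 times in Eomes-overexpressing cells, so these neighbours differed widely in level in both libraries.

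*Il7r* encodes CD127, the private chain for IL-7, which is also used by the receptor for TSLP. It lies on the minus strand at chr15:9505788-9530176. Its FPKM was 9.98 with the empty vector and 9.12 with Eomes, a log2 ratio of -0.13. Among 3555 genes with a mean FPKM of 5 to 20, 26.0% had a lower ratio. *Il9r*, on the minus strand at chr11:32187541-32200279, encodes the private chain for IL-9. It was listed at 0.02 with the empty vector and 0.03 with Eomes, close to the lowest value listed of 0.01. Values are printed with 2 decimals, and rounding alone leaves its log2 ratio anywhere from 0 to 1.22, so no difference is read from it.

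**Figure D2:**
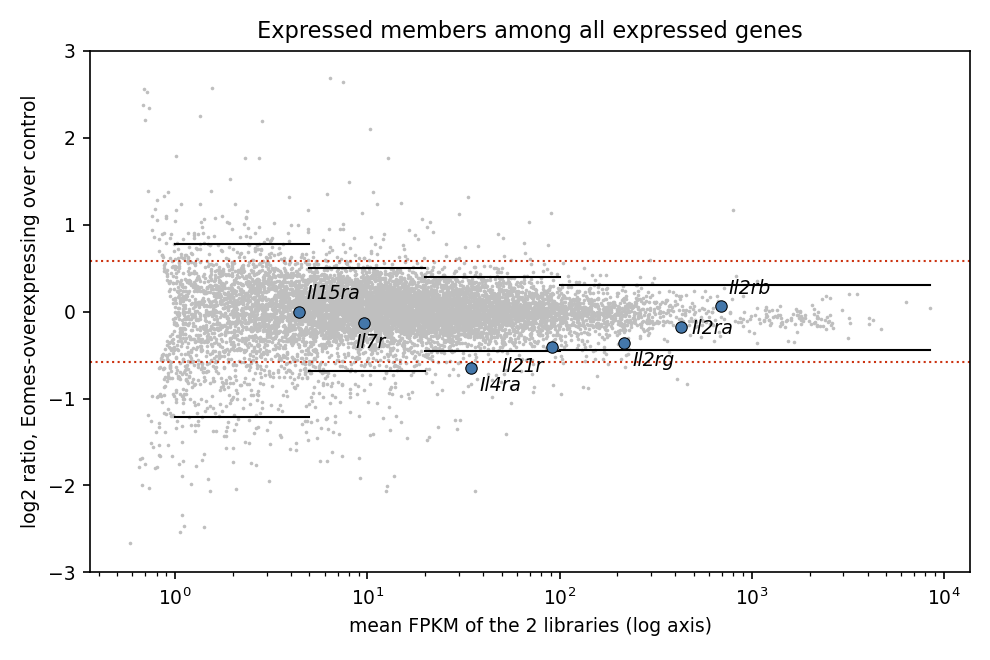
Log2 ratio against the mean FPKM of the 2 libraries (log axis) for expressed genes (grey), with the 7 expressed receptor genes in blue. Black lines bound the central 95% of log2 ratios in 4 classes of mean FPKM from 1 upward, dotted red lines mark 1.5-fold, and 15 genes lie outside the plotted range of ±3. *Il4ra* lies below both lines, and *Il21r* and *Il2rg* lie just above the lower black line of their class.

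Levels were also compared between chains that pair with each other, as ratios of FPKM within a library. Such ratios hold on the scale of FPKM only, and how reads shared by *Il2rg* and *Gm20489* were assigned is not known. The ratio of *Il2ra* to *Il2rb* was 0.678 with the empty vector and 0.574 with Eomes. The level of *Il2rb* was 2.78 times that of *Il2rg* in control and 3.70 times in Eomes-overexpressing cells, and that of *Il2ra* 1.88 and 2.13 times. The private chains for the other cytokines were below the gamma chain in both libraries. The ratio to *Il2rg* was 0.427 with the empty vector and 0.412 with Eomes for *Il21r*, and 0.175 and 0.143 for *Il4ra*. For *Il7r* it was 0.0411 and 0.0481, and for *Il15ra* 0.0181 and 0.0231.

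Across all genes the log2 ratio varied with transcript GC content, and the receptor genes span much of that range. In 20 bins of GC content, the median log2 ratio of expressed genes went from 0.26 in the lowest bin to -0.09 in the highest. *Il7r* had the lowest GC content of the 8 genes, 40.5%, in a bin with a median of 0.21, and *Il4ra* the highest, 55.8%, in a bin with a median of -0.09. With the median of the bin subtracted, *Il4ra* was at -0.56 and no longer past 1.5-fold, a threshold that 4.89% of genes passed downward on this scale. *Il2rg* was then at -0.35, *Il7r* at -0.34, *Il21r* at -0.31, *Il2ra* at -0.29, *Il15ra* at -0.07 and *Il2rb* at 0.14. The median over the 7 was -0.31. Thus 6 of the 7 had a log2 ratio under 0 with and without this step, and *Il4ra* was the lowest of them in both.

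**Figure D3:**
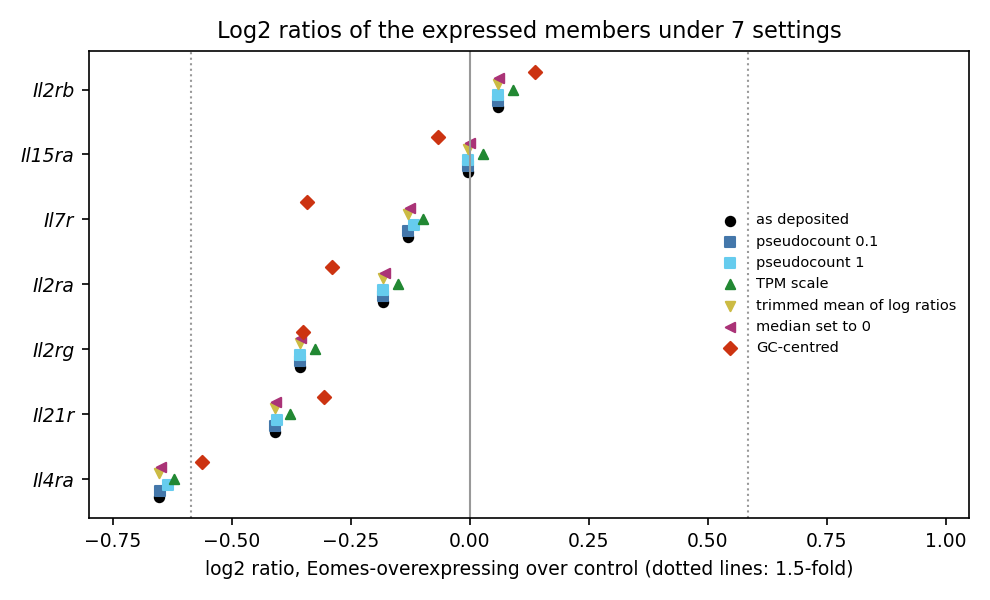
Log2 ratio of the 7 expressed receptor genes as deposited (black circles) and under 6 alternatives. Each point is 1 ratio of 1 library over the other and dotted lines mark 1.5-fold. *Il4ra* is past the lower line in all but the GC-centred values (red diamonds), and centring moves *Il7r* and *Il2ra* down and *Il21r* and *Il2rb* up.

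Of 8 genes for ligands of these receptors, *Il2*, *Il15*, *Il21* and *Tslp* had no listed value in the files used here. A missing value does not show a low level, since *Trac*, which these cells use, had none either. *Il4*, *Il7* and *Il9* had no listed value as high as an FPKM of 1. *Il7* was listed only with Eomes, at 0.02, and *Il9* only with the empty vector, at 0.1. *Il4* was at 0.18 with the empty vector and 0.09 with Eomes. The only ligand gene listed at an FPKM of 1 or more was *Il13*, which encodes a cytokine that signals through the chain of *Il4ra* together with that of *Il13ra1*. Its FPKM was 10.3 with the empty vector and 0.59 with Eomes, a log2 ratio of -4.13, at position 9922 of 9925 expressed genes ordered from the highest log2 ratio. *Il13ra1* had no listed value in the files used here. *Il13* and *Il4ra* were thus both lower, with *Il13* by far the larger difference. *Il13* met the minimum FPKM only through control. Of all expressed genes 5.16% were lower by more than 1.5-fold, and a link between the 2 genes was not tested.

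Of 7 JAK and STAT genes, 7 were expressed, 0 passed 1.5-fold in either direction, and 6 had a log2 ratio under 0. Among all expressed genes 92.4% were within 1.5-fold and 50.5% had a log2 ratio under 0, so a count of 0 past the fold is close to that of genes in general. The median was -0.22. *Jak3*, the kinase bound to the gamma chain, had an FPKM of 67.3 with the empty vector and 54.4 with Eomes, a log2 ratio of -0.31. *Stat3* had a log2 ratio of -0.22. *Jak1*, named after its values were seen, was the gene of the 7 with a ratio above 0, at 0.29. The 2 genes for STAT5, *Stat5a* and *Stat5b*, had log2 ratios of -0.32 and -0.28.

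Of 6 feedback inhibitors, 0 passed 1.5-fold, 4 had a log2 ratio under 0 and 2 above it, beside the same 92.4% and 50.5% of all expressed genes. *Cish*, which is induced by STAT5 and inhibits its activation, had a log2 ratio of -0.33, and *Ptpn6*, which encodes the phosphatase SHP-1, one of -0.41. A further list held 12 genes known to respond to IL-2 or STAT5, without *Cish*, which was counted among the inhibitors. Of these 12, 11 were expressed and 0 passed 1.5-fold, again beside 92.4% of all expressed genes within it. Their ratios ran from -0.27 to 0.55 with a median of 0.03. *Lta*, which encodes lymphotoxin alpha, had a log2 ratio of 0.20, and *Ccnd3*, which encodes cyclin D3, one of -0.04. *Bcl6*, a gene known to be lowered by IL-2, was listed at 0.01 in both libraries.

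Receptor chains of other cytokine families were used as a comparison. Of 32 such genes 22 were expressed, of which 6 were lower and 1 higher by more than 1.5-fold, with a median log2 ratio of -0.15. Of all expressed genes 5.16% were lower and 2.44% higher by that fold, and of those with a mean FPKM of 1 to 5, 11.4% and 5.30%. The gene that was higher was *Il10ra*, at a log2 ratio of 0.85. The lower genes were *Il1r2*, a decoy receptor for IL-1 (-2.47), *Il11ra1* (-1.29), *Ifngr2*, a chain of the interferon gamma receptor (-0.86), *Il1rl1*, the receptor for IL-33 (-0.77), *Csf2rb* (-0.68) and *Il18r1*, a chain of the IL-18 receptor (-0.65). The FPKM of *Il18r1* was 40.7 with the empty vector and 25.9 with Eomes, close to the levels of *Il4ra*. *Il11ra1*, *Ifngr2*, *Csf2rb* and *Il1r2* met the minimum FPKM only through control, where they were under an FPKM of 2. All but *Il1r2* had a mean FPKM under 1, so they lie outside the class of 1 to 5. *Csf2rb* has a near-identical copy, *Csf2rb2*, with which it can share reads. The shares lower by more than 1.5-fold were 14.3% of 7 common gamma chain receptor genes and 27.3% of 22 other receptor genes. The latter share counts the genes that met the minimum only through control, and the difference between the shares was not tested.

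B cells and myeloid cells also carry the chain of *Il4ra*, and B cells that of *Il21r*. The summed FPKM of B cell markers, over 2 of 4 listed, was 2.87 with the empty vector and 1.60 with Eomes. Most of it was *Cd79b*, and *Ms4a1* and *Pax5* were not listed. For myeloid or dendritic cell markers, over 5 of 7 listed, it was 4.30 and 6.08, with *Csf1r* and *Lyz2* not listed. For mast cell markers, over 2 of 3 listed, it was 0.78 and 1.11, with *Fcer1a* not listed. Their part in the levels of *Il4ra* and *Il21r* was not tested.

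**Figure D4:**
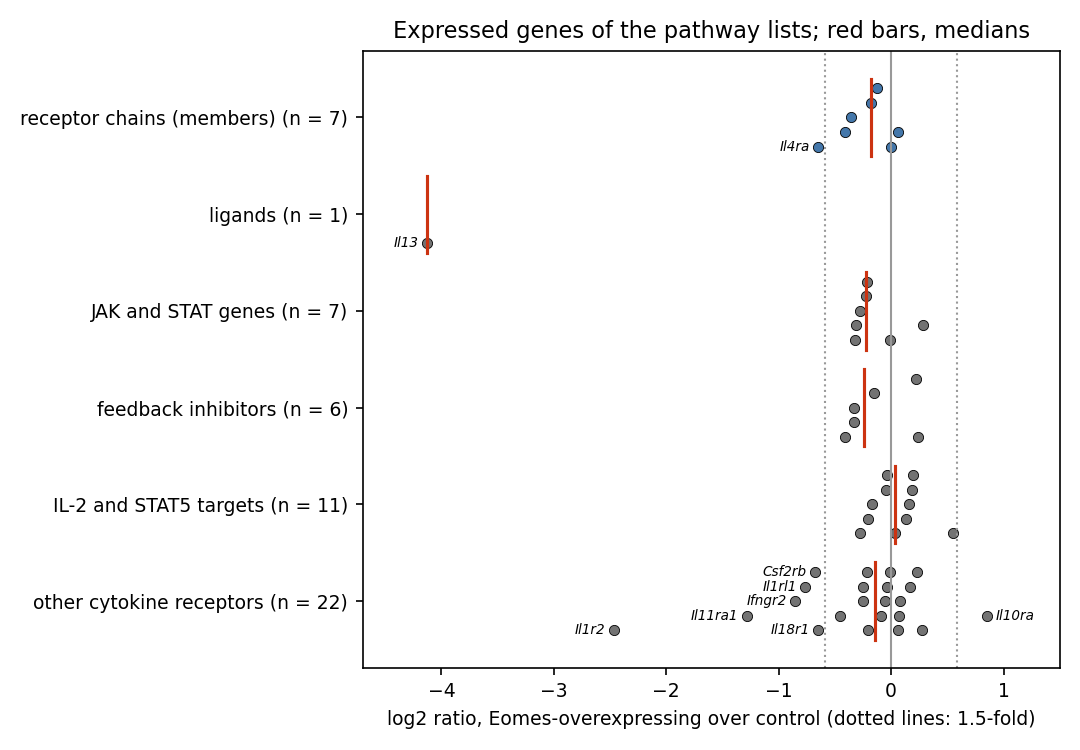
Log2 ratios of the expressed genes of 6 lists, with the common gamma chain receptors in blue, the other lists in grey and the median of each list as a red bar. Dotted lines mark 1.5-fold, and genes beyond them are named. The JAK and STAT genes, inhibitors and targets lie within the lines, *Il4ra* lies just beyond the lower one, and *Il13* is at -4.13.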

How the data were processed

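RNA libraries of 1 control and 1 Eomes-overexpressing culture were sequenced by the authors on an Illumina HiSeq instrument. Reads were filtered with SOAPnuke and mapped to mm10 with HISAT and Bowtie2, and expression was computed with RSEM. Versions and annotation are not given in the sources used here. The authors deposited FPKM per gene symbol, called RPKM in their methods, with no scaling between the libraries stated. The control file lists 14130 symbols and the Eomes file 13985. Symbols turned into dates (20 and 19) were left out. The median FPKM was 5.71 and 5.84, respectively.

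Log2 ratios were computed with Python 3.11.15, numpy 2.4.6 and pandas 2.3.3, with values not listed set to 0.01. No test was run, since each condition has 1 library. Steps of 1 read were sought in the low FPKM of genes with 1 annotated transcript. They gave depths of 18950000 to 25450000 reads depending on the length assumed, so depth was taken as unknown and limits the precision to an unknown extent. Genes could be placed in GC bins for 99.1% of expressed genes, using the longest GENCODE vM21 transcript. Alternatives were pseudocounts of 0.1 and 1, scaling to the summed FPKM, to a trimmed mean of log ratios or to the median, GC centring, other minimum FPKM values and a 2-fold threshold. The steps were checked on simulated data with 2-fold changes and less spread than these libraries show. That check covers the computation only, not how reliable a 1.5-fold difference is here. Members, lists, threshold and alternatives were chosen with earlier results of these data known. Every member was named. From the 5 other lists, genes past 1.5-fold were named, or, with fewer than 2 of these, the 2 with the highest mean FPKM, and beside *Il4ra* its nearest protein-coding genes. Other genes, among them *Stat5a*, *Stat5b* and *Bcl6*, were named outside this rule. Protein sequences and Eomes binding data were not used here. A B cell marker of the fixed list is not reported here.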

Additional observations from a re-analysis of the deposited data

How the results depend on the processing

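Scaling to the summed FPKM, a trimmed mean or the median, and pseudocounts of 0.1 or 1, moved no log2 ratio of an expressed receptor gene by 0.1 or more, and *Il4ra* stayed past 1.5-fold under each. Centring by GC content moved *Il4ra* to -0.56, *Il21r* to -0.31, *Il2ra* to -0.29 and *Il7r* to -0.34, and the median of the 7 to -0.31, leaving 0 receptor genes lower by more than 1.5-fold. At 2-fold the number was also 0. *Il9r* went from 0.58 to 0.12 and 0.014 with pseudocounts of 0.1 and 1. Among all expressed genes 242 were higher and 512 lower by more than 1.5-fold, and these became 118 and 284 with a pseudocount of 1, 1353 and 2075 with no minimum FPKM, 95 and 213 with a minimum of 5, and 69 and 175 at 2-fold. With GC centring 1 IL-2 or STAT5 target passed 1.5-fold (*Pim2*, named after its value was seen), and with a pseudocount of 1 the other receptors past 1.5-fold numbered 4 in place of 7. No paired analysis was possible because each condition has 1 library, and for the same reason no library could be left out. Depth is unknown, so the counting error behind each ratio is unknown too. The limit of 0.1 was chosen after seeing the data.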
